A study of Mus musculus with 9 samples.

Results

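The 9 genes described here encode enzymes that put double bonds into fatty acids or lengthen them: the desaturases Scd1, Scd2, Fads1, Fads2 and Fads3 and the elongases Elovl1, Elovl5, Elovl6 and Elovl7. They were taken by name from the gene table of the study, which lists 23420 genes, and all 9 were found there. The study measured RNA by sequencing in kidney cortex of male C57/BL6 mice on a chow diet, of which 5 were fed ad libitum and 4 were fasted for 16 h before they were killed. Neither group carried a transgene or received an agent, the ages are not given in the sources used here, and the design text gives the groups as numbers of mice, so each library is taken here as 1 mouse. The values are normalized counts, that is, reads per gene divided by 1 size factor per library.

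Desaturases are iron enzymes of the endoplasmic reticulum that take electrons from cytochrome b5 and insert a double bond into a fatty acyl chain. In the monounsaturated route, Elovl6 lengthens palmitate and the stearoyl-CoA desaturases Scd1 and Scd2 turn saturated chains into palmitoleate and oleate. Of these, oleate is a main fatty acid of stored fat. In the polyunsaturated route, Fads2 and Fads1 desaturate the dietary linoleate and linolenate in turn, with a lengthening by Elovl5 between them, to give arachidonate and eicosapentaenoate. Both routes are known in liver as targets of the sterol regulatory element-binding protein SREBP-1, which insulin activates, and of the nuclear receptors LXR and PPAR alpha. The proximal tubule, which makes up most of the cortex, takes much of its energy from fatty acid oxidation.

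Fasted cortex held less RNA of 5 of the 9 genes, and none rose. Scd2 changed most and was 2.14-fold lower, Fads2 was 1.51-fold lower, Fads1 was 1.45-fold lower, Fads3 was 1.35-fold lower and Elovl1 was 1.20-fold lower. Scd1, Elovl5, Elovl6 and Elovl7 did not pass the test, for which limma was run on all 15098 genes above the filter and p was adjusted by Benjamini-Hochberg with a threshold of 0.05. Of all genes tested, 5.25% were called lower, 5.72% were called higher and 11% were called in either direction. All 9 estimates were below 0, with a median log2 change of -0.30 beside 0.001 over all genes tested; in other settings the sign turned for Elovl6 without Fasted 2 (0.01) and for Elovl5 with adipocyte markers as a covariate (0.04). By enzyme class, 4 of 5 desaturases and 1 of 4 elongases were lower, with median log2 changes of -0.54 and -0.10. By limma, edgeR and DESeq2 alike the number of these genes called higher was 0, and it was also 0 at an unadjusted p under 0.05.

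**Figure D1:**
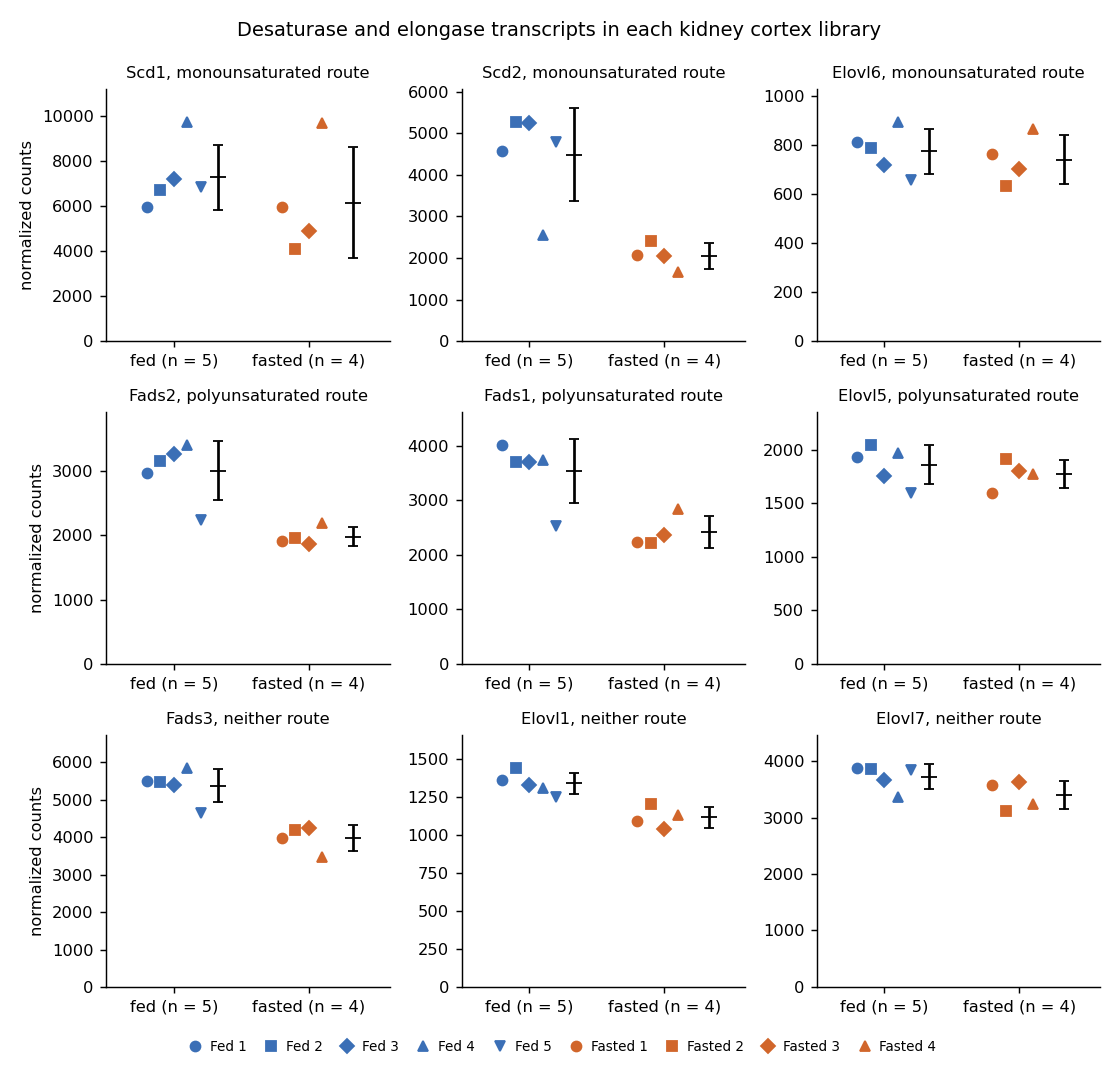
Normalized counts (y axis, linear from 0) of each of the 9 genes in the 5 fed and 4 fasted libraries, with 1 symbol per mouse and the group mean ± SD as black bars. All fasted values lie below all fed values for Scd2, Fads2, Fads3 and Elovl1, while Fed 4 is low for Scd2 and Fed 5 is low for Fads1 and Fads2.

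The regions before the start sites are shown for genes of either outcome, so that their letters can be read beside the changes: Fads3 and Elovl1 were lower in fasted cortex, while Elovl5 and Elovl6 are the elongases of the polyunsaturated and the monounsaturated route and were not called. RefSeq windows of the 250 bases before a start site, on GRCm38.p6, were matched for 6 of the 9 genes (Fads2, Fads3, Elovl1, Elovl5, Elovl6 and Elovl7). The sequences are given 5′ to 3′ on the gene's strand, limited to the bases that no GENCODE exon covers, with searched motifs in capitals; of the Fads2 window 243 bases are exon there, so it is not shown, and Elovl1 has a further window, which is not shown.
Fads3, chr19:10041298-10041547, + strand, 250 bases: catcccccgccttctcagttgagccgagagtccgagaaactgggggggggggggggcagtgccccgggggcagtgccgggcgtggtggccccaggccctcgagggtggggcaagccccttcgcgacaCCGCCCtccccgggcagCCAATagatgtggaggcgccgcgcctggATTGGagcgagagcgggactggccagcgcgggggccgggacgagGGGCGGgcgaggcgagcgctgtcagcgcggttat
Elovl1, chr4:118427843-118428092, + strand, 250 bases: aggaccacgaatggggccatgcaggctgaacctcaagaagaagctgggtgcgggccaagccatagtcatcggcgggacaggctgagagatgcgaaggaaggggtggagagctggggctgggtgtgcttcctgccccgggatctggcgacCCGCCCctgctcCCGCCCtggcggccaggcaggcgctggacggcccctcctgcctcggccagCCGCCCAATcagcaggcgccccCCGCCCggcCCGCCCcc
Elovl5, chr9:77917115-77917363, + strand, 249 bases: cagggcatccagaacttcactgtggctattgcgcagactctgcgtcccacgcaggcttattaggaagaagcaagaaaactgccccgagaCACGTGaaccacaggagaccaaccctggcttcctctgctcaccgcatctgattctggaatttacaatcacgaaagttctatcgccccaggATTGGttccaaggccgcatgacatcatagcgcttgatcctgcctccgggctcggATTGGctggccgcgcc
Elovl6, chr3:129532136-129532256, + strand, 121 bases: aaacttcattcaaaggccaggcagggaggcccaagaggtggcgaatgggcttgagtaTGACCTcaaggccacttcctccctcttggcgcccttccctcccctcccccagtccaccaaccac

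The motifs searched on both strands were CCAAT, the box bound by NF-Y, GGGCGG, the core of the GC box, TCACNCCAC, a sterol regulatory element, CACGTG, an E-box, and TGACCT, a nuclear receptor half-site; GGGCGG and CCAAT can share letters where they abut, as in the Elovl1 window. CCAAT stood in the windows of Fads3, Elovl1 and Elovl5 and in 33.8% of 32851 windows of the same length. GGGCGG stood in those of Fads3, Fads2, Elovl1 and Elovl7 and in 32.7% of all windows. CACGTG stood before Elovl5 and in 6.02% of all, and TGACCT stood before Elovl6, in the further Elovl1 window and in 14% of all. TCACNCCAC stood in none of the windows of these 6 genes and in 1.05% of all. Lower and uncalled genes thus shared motifs, and a match in these letters describes the window only.

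Scd1 (ENSMUSG00000037071, chr19:44394455-44407879, minus strand, GRCm38) encodes the main stearoyl-CoA desaturase of liver and fat and had the highest level of the 9 genes per kb of exon. Its normalized counts were 5940, 6693, 7208, 9722 and 6832 in Fed 1 to Fed 5 and 5945, 4092, 4885 and 9655 in Fasted 1 to Fasted 4. Fed 4 and Fasted 4 stood at nearly the same high level, and the groups overlapped. The means were 7279 ± 1441 (SD, n = 5) in fed and 6144 ± 2461 (SD, n = 4) in fasted cortex. The log2 change was -0.30 (SE 0.22, 95% interval -0.78 to 0.18, limma adjusted p = 0.41), which in percent is an interval of -41.9% to 13.2%. Single mice moved this estimate both ways: it was -0.55 without Fasted 4 (limma adjusted p = 0.079), -0.13 without Fasted 2 (0.74) and -0.19 without Fed 4 (0.61).

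Scd2 (ENSMUSG00000025203, chr19:44293674-44306864, plus strand) encodes the stearoyl-CoA desaturase best known from brain and from early life. In normalized counts it stood at 4573, 5269, 5241, 2546 and 4792 in Fed 1 to Fed 5 and 2073, 2409, 2041 and 1667 in Fasted 1 to Fasted 4. Each fasted mouse was below each fed mouse, with Fed 4 close to the fasted mice and well below the other 4 fed mice. The mean was 4484 ± 1123 (SD, n = 5) in fed and 2048 ± 303 (SD, n = 4) in fasted cortex. Limma gave a log2 change of -1.10 (SE 0.20, 95% interval -1.53 to -0.66, limma adjusted p = 0.0063). Per kb, Scd2 made up 38.6% to 41.3% of the sum of Scd1 and Scd2 in the other 4 fed mice and 18.99% in Fed 4, and it made up 23.8%, 34.5%, 27.2% and 13.4% in Fasted 1 to Fasted 4.

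The sum of the pair varied less among fed mice than either gene. Summed normalized counts of Scd1 and Scd2 lay between 10513 and 12448 in the 5 fed mice and were 8018, 6500, 6926 and 11322 in Fasted 1 to Fasted 4. Fasted 4 alone lay within the fed range, through its Scd1. Around their group means, log2 levels of Scd1 and Scd2 ran opposite to each other over the 9 libraries (r = -0.71). Scd1 ran with Elovl6 (r = 0.77). Elovl6 in turn ran opposite to Scd2 (r = -0.73) and with the polyunsaturated genes Fads1 (0.75) and Fads2 (0.68), so its likeness crossed the routes. Fed 4 and Fasted 4 each had the highest Scd1 and the lowest Scd2 of their group, and r without these mice was not examined. These correlations describe 9 libraries, in each of which all genes share 1 size factor.

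**Figure D2:**
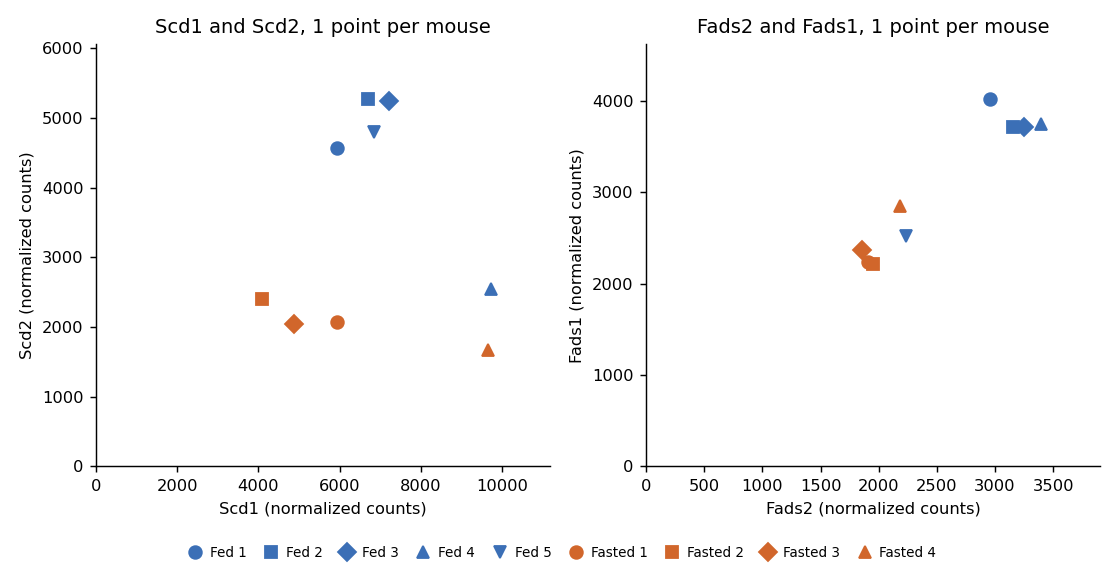
Normalized counts of Scd2 against Scd1 (left) and of Fads1 against Fads2 (right), with 1 symbol per mouse and linear axes from 0. Fed 4 and Fasted 4 pair high Scd1 with low Scd2, and Fed 5 lies beside the 4 fasted mice for Fads1 and Fads2.

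Elovl6 (ENSMUSG00000041220, chr3:129532355-129638495, plus strand), the elongase that turns palmitate into stearate, had the lowest level per kb of the 9 genes. Its normalized counts were 814, 788, 718, 896 and 659 in Fed 1 to Fed 5 and 763, 634, 703 and 869 in Fasted 1 to Fasted 4. The groups overlapped over most of their range, with Fed 4 and Fasted 4 the highest of each. Its log2 change was -0.06 (SE 0.11, 95% interval -0.30 to 0.18, limma adjusted p = 0.75).

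In the polyunsaturated route, Fads2 (ENSMUSG00000024665, chr19:10062765-10101746, minus strand) encodes the first and rate-limiting desaturase. Fads2 stood at 2956, 3152, 3249, 3397 and 2239 in Fed 1 to Fed 5 and 1911, 1954, 1856 and 2180 normalized counts in Fasted 1 to Fasted 4. Each fasted mouse was below each fed mouse, though Fed 5 and Fasted 4 nearly met. The mean was 2999 ± 454 (SD, n = 5) in fed and 1975 ± 142 (SD, n = 4) in fasted cortex. On the log2 scale it changed by -0.59 (SE 0.11, 95% interval -0.84 to -0.34, limma adjusted p = 0.0083).

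Fads1 (ENSMUSG00000010663, chr19:10182888-10196877, plus strand) encodes the desaturase that completes arachidonate. Its normalized counts were 4018, 3711, 3708, 3744 and 2525 in Fed 1 to Fed 5 and 2237, 2212, 2368 and 2845 in Fasted 1 to Fasted 4. Fed 5 lay below Fasted 4, so the groups overlapped by these 2 mice. The mean was 3541 ± 582 (SD, n = 5) in fed and 2416 ± 295 (SD, n = 4) in fasted cortex. This is a log2 change of -0.54 (SE 0.13, 95% interval -0.83 to -0.25, limma adjusted p = 0.024), and 9 of 26 other settings ended this call. Fads1 and Fads2 moved together around their group means (r = 0.88 over 9 libraries), with Fed 5 low for both.

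Elovl5 (ENSMUSG00000032349, chr9:77917364-77984519, plus strand), the elongase between those steps, stayed within its fed range in 3 of 4 fasted mice. Its normalized counts were 1934, 2044, 1750, 1973 and 1597 in Fed 1 to Fed 5 and 1596, 1911, 1797 and 1768 in Fasted 1 to Fasted 4. Fasted 1 was level with Fed 5, the lowest fed mouse. The estimate was a log2 change of -0.07 (SE 0.08, 95% interval -0.25 to 0.12, limma adjusted p = 0.64), which in percent is an interval of -16.2% to 8.31%.

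Of the genes in neither route, Fads3 (ENSMUSG00000024664, chr19:10041569-10060110, plus strand), the third desaturase of the Fads cluster, which acts on sphingoid bases and trans-vaccenate, had normalized counts of 5510, 5482, 5409, 5856 and 4651 in Fed 1 to Fed 5 and of 3986, 4185, 4259 and 3472 in Fasted 1 to Fasted 4. The groups did not overlap, and Fed 5 was again the lowest fed mouse. The mean was 5382 ± 443 (SD, n = 5) in fed and 3976 ± 355 (SD, n = 4) in fasted cortex. The log2 change was -0.44 (SE 0.08, 95% interval -0.62 to -0.25, limma adjusted p = 0.0082).

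Elovl1 (ENSMUSG00000006390, chr4:118428093-118432953, plus strand) makes very long saturated chains for sphingolipids. Elovl1 had normalized counts of 1364, 1443, 1327, 1313 and 1254 in Fed 1 to Fed 5 and 1094, 1206, 1041 and 1129 in Fasted 1 to Fasted 4. The groups did not overlap, and the difference was small beside those of the 4 called desaturases. The log2 change was -0.26 (SE 0.07, 95% interval -0.41 to -0.12, limma adjusted p = 0.027), and 9 of 26 other settings ended the call. Its locus overlaps Cdc20 on the opposite strand, and whether reads were counted by strand is not given in the sources used here.

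Elovl7 (ENSMUSG00000021696, chr13:108214404-108285683, plus strand), an elongase of long saturated chains, had normalized counts of 3883, 3862, 3672, 3369 and 3846 in Fed 1 to Fed 5 and of 3574, 3125, 3630 and 3241 in Fasted 1 to Fasted 4. Fed 4 fell among the fasted mice, and the groups overlapped. The log2 change was -0.14 (SE 0.07, 95% interval -0.29 to 0.02, limma adjusted p = 0.24). All fasted mice lay below all fed mice for 4 of the 9 genes (Scd2, Fads2, Fads3 and Elovl1), beside 6.64% of all genes tested and 14.3% that did not overlap in either direction.

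**Figure D3:**
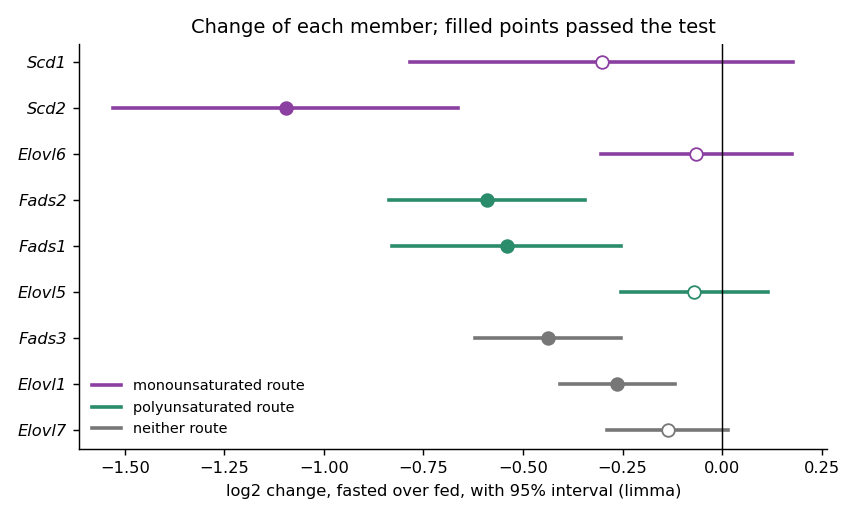
Log2 change of each gene, fasted over fed (x axis), as limma estimate with its 95% interval, coloured by route; filled points passed the adjusted threshold and open points did not. Scd2 lies farthest from 0 at -1.10, the 3 Fads genes lie between -0.59 and -0.44, and the 3 uncalled elongases lie between -0.14 and -0.06.

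The calls have limits in the fed mice. When the fed side was cut to Fed 4 and Fed 5, whose sample titles carry the highest numbers, none of the 9 genes was called by limma, 4 had an unadjusted p under 0.05, and the log2 changes were -0.78 for Scd2, -0.48 for Fads2, -0.36 for Fads1, -0.40 for Fads3 and -0.20 for Elovl1. Against Fed 1, Fed 2 and Fed 3 instead, the same 5 genes were called lower. The log2 changes were then -1.30 for Scd2, -0.66 for Fads2, -0.66 for Fads1, -0.46 for Fads3 and -0.30 for Elovl1. Calls over all genes moved too. Of 15110 genes tested, 357 were called against Fed 4 and Fed 5, 110 of them lower. Against Fed 1, Fed 2 and Fed 3, 1803 were called, 911 of them lower. The main test called 1656 of 15098, 793 of them lower. Cortex is a mixture of cell types, and in such tissue fewer cells of a type and less RNA per cell cannot be told apart.

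Cell type markers and depth were compared beside these values. Libraries held 18902645 to 32469467 reads, and the least covered of the 9 genes, Elovl6, had at least 493 reads in every library. Summed markers of the proximal tubule (8 of 8 in the table) lay between 684560 and 1038860 normalized counts in fed mice, with Fed 5 the lowest. They lay between 657983 and 878935 in fasted mice, and the medians were 955566 in fed and 770944 in fasted mice. The 8 adipocyte markers summed to 1039 to 2446 in fed and 995 to 1580 in fasted mice, nearly all of it Car3 and Fabp4, which other cells also make and which moved apart: Fabp4 stood at 509 to 768 in fed and 766 to 1106 in fasted mice. Adipoq reached at most 2.79 and Lep at most 0.744 normalized counts, while Plin1 and Cidec were highest in Fasted 2, at 70.7 and 73.3, beside at most 1.84 and 22.9 in fed mice. Car3 stood at 1031 to 1877 in Fed 1 to Fed 4 and at 245 in Fed 5, beside 205 to 460 in the fasted mice, so Car3 and not Fabp4 lowered the median sum of the fasted mice. With this sum as a covariate Scd2, Fads2 and Fads3 passed (adjusted p = 0.017, 0.024 and 0.034) while Fads1 and Elovl1 did not (0.083 and 0.10). Summed macrophage markers (3 of 4 listed names in the table) lay between 1589 and 2114 in fed and 1248 and 1857 in fasted mice. Summed collecting duct markers lay between 6093 and 8968 in fed (median 7950) and 5793 and 6287 in fasted mice (median 6014), and endothelial ones between 3911 and 4470 in fed and 4406 and 4890 in fasted mice. Thick ascending limb markers summed to 109007 to 146471 in fed (median 140535) and 137294 to 169659 in fasted mice (median 151006). Those of the distal convoluted tubule summed to 24817 to 34239 in fed and 23841 to 30625 in fasted mice. Podocyte markers summed to 8004 to 10146 in fed and 8134 to 9265 in fasted mice. Hepatocyte markers varied widely, from 1793 to 14989 in fed and 3967 to 10692 in fasted mice. Within the proximal tubule list, Lrp2 was lower and Slc13a3 higher in each fasted mouse than in each fed mouse. Of the 4 adrenal markers, Cyp11b1 was at 0 in every library. Their sum lay between 176 and 308 in fed and 225 and 283 in fasted mice, nearly all of it Star. Rn45s, the ribosomal RNA entry, held 5.53% of reads in Fed 3, 2.36% in Fasted 1 and at most 1.38% elsewhere, and without these 2 libraries Scd2, Fads2 and Fads3 still passed and Fads1 and Elovl1 did not, at log2 changes of -0.49 and -0.26 (adjusted p = 0.10 and 0.083). The part of cell composition in the changes was not tested beyond these values.

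The monounsaturated and polyunsaturated routes were compared within each mouse, since a ratio of 2 genes in 1 library does not depend on library scaling. The monounsaturated route had 1 of 3 genes lower (Scd2) and a median log2 change of -0.30, which is that of Scd1. The polyunsaturated route had 2 of 3 lower (Fads2 and Fads1) and a median of -0.54, which is that of Fads1. Of all genes tested, 5.25% were called lower. The mean log2 level over the 3 genes of the monounsaturated route, relative to the fed mean, was between -0.05 and 0.07 in fed mice and was -0.45, -0.65, -0.59 and -0.26 in Fasted 1 to Fasted 4. That of the polyunsaturated route was between 0.04 and 0.13 in Fed 1 to Fed 4, -0.36 in Fed 5, and -0.50, -0.41, -0.43 and -0.27 in Fasted 1 to Fasted 4. Both route means were thus lower in each fasted mouse than in Fed 1 to Fed 4, while Fed 5 had a fed level of the first and a fasted level of the second. Averaged over the fasted mice, they were -0.49 for the monounsaturated and -0.40 for the polyunsaturated route, the reverse of the order of the medians. The difference of the means of the routes was 0.107 ± 0.189 (SD, n = 5) in fed and 0.020 ± 0.138 (SD, n = 4) in fasted mice.

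Over the 9 pairs of a monounsaturated with a polyunsaturated gene, none of the ratios passed an exact two-sided permutation test over mice after Benjamini-Hochberg adjustment over the 9 pairs, and 3 had an unadjusted p under 0.05. The smallest p that 5 against 4 mice allow is 0.0159. Elovl6 over Fads2 and Elovl6 over Fads1 reached it, with no overlap between groups. Their log2 ratios were higher in fasted mice by 0.53 and 0.48 (adjusted p = 0.071 for both, exact permutation test). Even at this smallest p, these 2 pairs alone could not pass the adjustment over 9 pairs. The lack of calls therefore cannot show that the routes changed alike. Scd2 over Elovl5 was lower by a log2 difference of -1.03 (exact permutation p = 0.032, adjusted p = 0.095), with Fed 4 among the fasted mice. For Scd1 over Fads2 the estimate was 0.29 (exact permutation p = 0.32) and for Scd2 over Fads2 it was -0.51 (p = 0.19), and neither passed. Elovl6 over Elovl5 was -1.26 ± 0.08 (SD, n = 5) in fed and -1.26 ± 0.27 (SD, n = 4) in fasted mice.

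**Figure D4:**
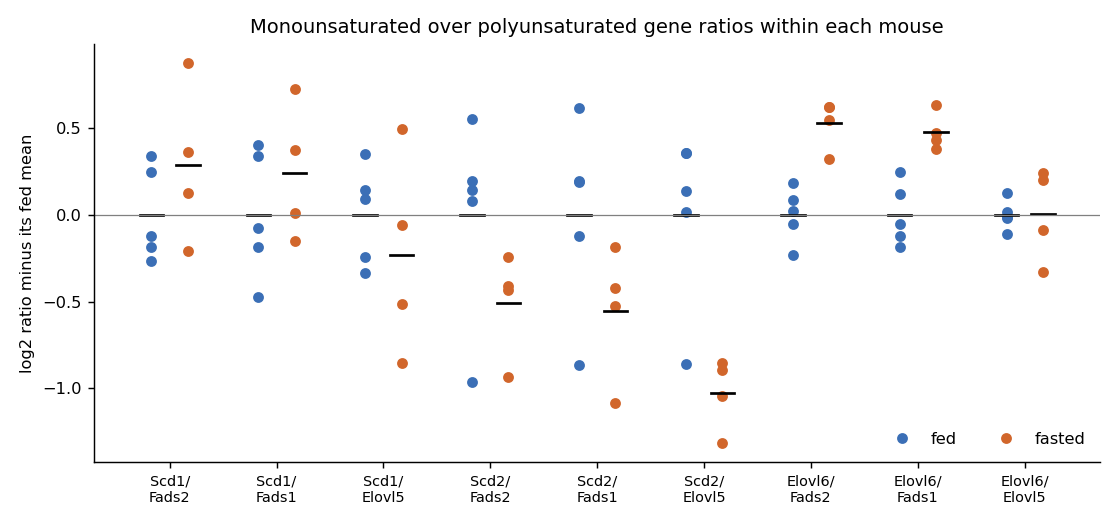
Log2 ratio of each monounsaturated gene over each polyunsaturated gene within a mouse, minus the mean of that ratio over fed mice (y axis), with 1 point per mouse and black bars for group means. Fasted points lie above all fed points for Elovl6 over Fads2 and Elovl6 over Fads1; for Scd2 over Elovl5 a single fed point, Fed 4, lies among the fasted points.

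By level per kb of annotated exon, the order in fed cortex was Scd1 (1488 ± 295), Fads3 (1419 ± 117), Elovl7 (929 ± 54.0), Fads2 (910 ± 138), Scd2 (821 ± 206), Fads1 (736 ± 121), Elovl5 (528 ± 51.8), Elovl1 (492 ± 25.6) and Elovl6 (121 ± 14.1), in normalized counts per kb (SD, n = 5). The ranges over mice of Scd1 and Fads3 overlapped, as did those of each neighbour with the next from Elovl7 down to Elovl1, whereas Fads3 and Elovl7, and Elovl1 and Elovl6, did not overlap. In fasted cortex Scd2 moved from the fifth to the eighth place (375 ± 55.5, SD, n = 4), below Elovl1 (410 ± 25.4), and the first 4 places were unchanged. With the longest transcript in place of all exons Scd1 and Fads3 stayed first and Elovl6 last, while Fads1, Elovl7, Scd2, Elovl1 and Elovl5 changed places.

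All 5 desaturase genes lie on chromosome 19, in a Fads and an Scd cluster. The 3 Fads genes span 155 kb, with 2.654 kb between Fads3 and Fads2 and 81.141 kb between Fads2 and Fads1, and all 3 were lower. Of the 7 coding neighbours within 100 kb, Rab3il1, a Rab exchange factor gene next to Fads3, was also lower, from 887 ± 64.5 (SD, n = 5) to 623 ± 32.5 (SD, n = 4) normalized counts (log2 change -0.51, limma adjusted p = 0.0018). Fth1, Best1, Fen1, Tmem258, Myrf and Dagla were not called. In the Scd cluster, which spans 114 kb, Scd2 was lower and Scd1 was not called, and Scd4 between them was near the lowest level tested, at 13.7 ± 1.5 (SD, n = 5) and 11.3 ± 2.4 (SD, n = 4) normalized counts (limma adjusted p = 0.49). Scd3 was below the filter, at means of 5.24 in fed and 2.71 in fasted mice. The Scd genes are close copies, and how the counting treated reads that match several copies is not given in the sources used here.

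**Figure D5:**
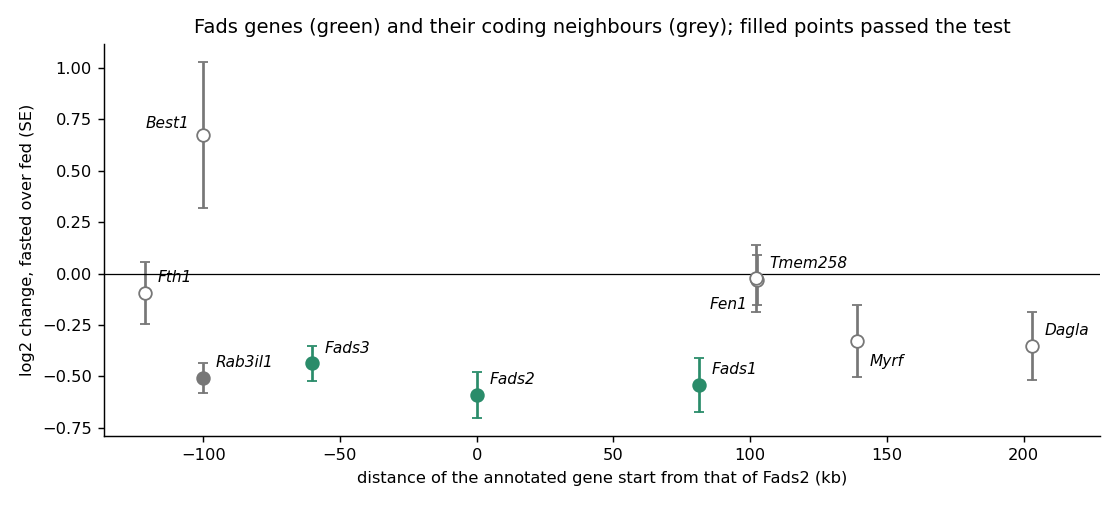
Log2 change, fasted over fed, with its SE (y axis) of the Fads genes (green) and the tested coding genes within 100 kb (grey), by distance of the annotated start from that of Fads2 in kb (x axis); filled points passed the test. Rab3il1, Fads3, Fads2 and Fads1 lie between -0.59 and -0.44, and the other 6 genes were not called.

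Other members of the families and the partner enzymes were described by lists. For these and the lists below, the share over all genes tested was 11% called in either direction, 5.25% lower and 5.72% higher. Of 8 further desaturase and elongase genes, 6 were tested and 1 passed, in the lower direction: Degs1, the desaturase that makes ceramide, had a log2 change of -0.40 (limma adjusted p = 0.019). Fads6 (-0.20, adjusted p = 0.16) and Scd4 had the next smallest p. Of 10 elongation and electron transfer partners, 1 was lower and 1 higher. Cyb5b, an outer mitochondrial cytochrome b5, had a log2 change of -0.43 (limma adjusted p = 0.021). Ptpla, the dehydratase gene now named Hacd1, had one of 0.53 (adjusted p = 0.040), and Ptplb, now Hacd2, one of -0.29 (adjusted p = 0.087). The medians of these lists were -0.13 and -0.12.

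Genes that supply palmitate fell in part. Of 9 tested, 3 passed, all lower, with a median log2 change of -0.07: Acaca, the acetyl-CoA carboxylase of lipogenesis (-0.54, limma adjusted p = 0.0040), its activator Mid1ip1 (-0.61, adjusted p = 0.026) and Fasn, fatty acid synthase (-0.49, adjusted p = 0.047). Of 17 regulators, 2 passed, both lower, with a median of -0.06, beside 11% of all genes tested called in either direction. Srebf1, which encodes SREBP-1, was the larger of these, with normalized counts of 2740, 3204, 2271, 1689 and 2094 in Fed 1 to Fed 5 and 948, 1041, 1018 and 959 in Fasted 1 to Fasted 4. Its groups did not overlap (log2 change -1.24, limma adjusted p = 0.00074). Srebf2, which encodes the sterol-controlled SREBP-2, had a log2 change of -0.79 (limma adjusted p = 0.022), and Ppara, which encodes PPAR alpha, one of 0.51 that did not pass (adjusted p = 0.055).

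Downstream of the polyunsaturated route, 7 of 12 genes of the peroxisomal steps were higher and 1 was lower (Pecr, -0.72), with a median log2 change of 0.84. Among them were Ehhadh (1.92, limma adjusted p = 3.04e-05) and Abcd3 (1.01, adjusted p = 0.00022), which encode a bifunctional enzyme and a transporter. These enzymes shorten very long chains and perform the last step to docosahexaenoate. Of 10 tested genes that use polyunsaturated chains, 2 passed, both higher, with a median of 0.13: Ephx2, a hydrolase of arachidonate epoxides (0.57, limma adjusted p = 0.0082), and Acsl4, which activates arachidonate (0.58, adjusted p = 0.024). Ptgs1, a cyclooxygenase, had a log2 change of 0.27 (adjusted p = 0.054).

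The genes whose log2 levels followed Scd1 most closely around the group means over the 9 libraries were Lrrc56 (r = 0.99), Ctbp2 (0.96), Pik3ip1 (0.96), Mapkapk3 (0.95) and Chst8 (0.93), of 11009 genes ranked. For Fads2 they were Klhl12 (0.98), Rassf10 (0.97), Zdhhc12 (0.97), Scpep1 (0.94) and Arl2bp (0.93). The 2 sets shared no gene, and neither held another desaturase or elongase. The genes named were picked for the highest r of 11009 genes over only 9 libraries, so these r values are extremes by selection. Sets this short, from so many genes, could hardly share a gene or hold a family member. No conclusion is therefore drawn from the lack of either.

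In the authors' deposited table, the same 5 genes had adjusted p-values under 0.01 and Scd1 did not (log2 change -0.20, adjusted p = 0.51). The log2 changes of the authors' deposited table were -0.96 for Scd2, -0.56 for Fads2, -0.50 for Fads1, -0.42 for Fads3 and -0.26 for Elovl1. The authors' deposited table of annotation terms, drawn from the same libraries, placed Scd2, Fads1 and Fads2 among 11 genes of biosynthesis of unsaturated fatty acids (fold enrichment 5.18, Benjamini-adjusted p = 0.0012), and all 5 among 11 genes of fatty acid biosynthesis (fold enrichment 3.49, adjusted p = 0.015). A second term for fatty acid biosynthesis in the authors' deposited table, with the same 5 among 14 genes, had a fold enrichment of 2.46 and an adjusted p of 0.20.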

How the data were processed

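RNA from about 50 mg of kidney cortex per mouse was sequenced from TruSeq libraries (labels' protocols). FastQC, TopHat2 2.0.9, HTSeq 0.9.1 and DESeq2, given as 3.5, are named per the submitters' processing notes, with the builds mm10 and hg19. The signal in the 9 sample columns is the deposited normalized count, which proved on testing to be reads over a size factor for each library: 161194 of 161194 values above 0 were whole reads within 0.01. The deposited log2 fold changes, their score, p-values and adjusted p-values and the fold enrichment of terms are the authors'.

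Values were tested with limma 3.58.1 (R 4.3.3, trend) on log2(value + 1), two-sided, over the 15098 genes whose mean reached 10, Benjamini-Hochberg adjusted over all; changes of low genes are understated on that scale. With recovered reads, edgeR 4.0.16 called 1655 and DESeq2 1.42.0 2349 genes, beside 1656. Mice were numbered in accession order within a group. Ratios were tested with scipy 1.17.1 over 126 arrangements of mice. Within groups, chi-square per degree of freedom was at least 16.7, so no library was a repeat of another. Coordinates are from GENCODE M21 (GRCm38), and sequences from RefSeq.

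The genes, lists and tests were chosen with earlier results of these data known. Named were all 9 genes, up to 3 genes of each list with the smallest p, the 5 genes nearest to Scd1 and Fads2 with a mean of at least 100, and markers at 0 everywhere. A gene that this rule names in the peroxisomal list is not reported here. Pecr, Adipoq, Lep, Plin1, Cidec, Lrp2, Slc13a3, Car3, Fabp4, Star and neighbours by position were added after their values were seen.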

Additional observations from a re-analysis of the deposited data

Results flagged for a closer look

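Scd2 in Fed 4 stood apart from the other fed mice: its log2 level was 11.31 and the others lay between 12.16 and 12.36, a gap of 0.805 of the group's range against a critical value of 0.71 for 5 samples. Fads1 in Fed 5 stood apart in the same way, with a log2 level of 11.30 beside 11.86 to 11.97 (0.827 of the range). The log2 ratio of Scd2 over Elovl5 in Fed 4 was 0.37 beside 1.24 to 1.58 (0.718 of the range). These were 3 of 36 groups of values examined, and 2 of 18 for the levels of the 9 genes; chance flags about 1 in 20 groups. Without Fed 4 or without Fed 5, the number of genes called lower was 5.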

How the results depend on the processing

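The number of genes called lower was 5 in the main test and between 3 and 5 when each library was left out in turn. It was 3 without Fed 3 and Fasted 1, 3 with adipocyte markers as a covariate, 3 at a threshold of 0.01, and 0 when the fed side was cut to Fed 4 and Fed 5, where 4 had an unadjusted p under 0.05 by limma. It was within 1.5 times the main count in 18 of 26 settings, all pseudocounts, filters, scalings, voom, edgeR and DESeq2 among them. No called change reversed its sign. Calls over all genes tested moved as well, from 1656 in the main test to 861 without Fasted 4 and 1959 without Fed 5. They were 1068 without Fed 3 and Fasted 1, 1066 with the covariate and 357 against Fed 4 and Fed 5. Fads1 lost its call without Fed 1, Fed 2, Fasted 1, Fasted 2 or Fasted 3 (adjusted p between 0.053 and 0.068), and Elovl1 without Fed 1, Fed 2, Fasted 1, Fasted 3 or Fasted 4 (0.065 to 0.086). Scd2, Fads2 and Fads3 lost theirs in 1 setting, when the fed side was Fed 4 and Fed 5 alone (0.13, 0.15 and 0.14). The cause was not tested, except that settings with fewer mice have less precision by construction. No ratio of the routes passed with a pseudocount of 10 or with medians, where the number of arrangements also limits the test. None passed in the settings with fewer mice either, where fewer arrangements make a pass harder or impossible. Without Fed 4 the log2 differences of Scd2 over Fads2 and over Fads1 were -0.75 and -0.77 (adjusted p = 0.051 for both, exact permutation test). Without Fasted 4 they were -0.36 and -0.38 (adjusted p = 0.59 and 0.58, same test). No scaling moved the median log2 change of all genes by over 0.1. No paired analysis was possible because the replicate numbers were given in accession order and the labels name no pairing.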
